A study of Homo sapiens with 8 samples.

Results

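The genes described here are the NRF2 pathway, the glutathione and thioredoxin systems and the enzymes that remove peroxide and superoxide. They were taken from the deposited count table as the rows whose gene symbol equals 1 of 48 listed symbols, and 47 of the 15852 genes in the table are such rows; the remaining symbol, GSTM3, was not analysed here. Of the 47 genes, 41 passed the filter on low counts and were tested among 11841 genes in all. RNA was sequenced from KYSE150, an established human esophageal squamous cell carcinoma line. There were 4 libraries labelled ShBOLA3-L, carrying a short hairpin RNA against the L isoform of BOLA3, and 4 labelled Control, with no other treatment given for either group. The labels do not say whether the hairpin cells were 1 clone or a pool, nor what the controls carried. Separate cultures are not named as the source of the 4 libraries in each group, so p-values measure only the spread between these libraries, which may be technical. The study concerns inclusion of BOLA3 exon 3 and the splicing factor HNRNPC, and the comparison asks how the transcriptome of knockdown cells differs from that of control cells.

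NRF2, encoded by NFE2L2, is a transcription factor that is held at a low level by KEAP1, an adaptor that presents it for ubiquitination and degradation. Oxidants and electrophiles modify KEAP1, and NRF2 then accumulates, pairs with a small MAF protein and binds antioxidant response elements, from which BACH1 otherwise represses transcription. Its targets make glutathione, reduce thioredoxin, supply NADPH and detoxify quinones and carbonyls, and the pathway is often active in squamous carcinomas. BOLA3 itself acts in mitochondria, in the transfer of iron-sulfur clusters to recipient enzymes.

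Levels of a gene across libraries are given as CPM, counts scaled to a common library size. BOLA3 was at 6.06, 6.64, 6.33 and 7.29 CPM in knockdown replicates 1 to 4, against 21.6, 19.1, 20.5 and 21.8 CPM in control replicates 1 to 4. The groups did not overlap (log2 change -1.66, SE 0.0821, adjusted p 6.9e-11 in edgeR). The counts cover all transcripts of the gene, so the L isoform was not measured apart.

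After knockdown, 14 of the 41 tested redox genes rose and 1 fell. Over all tested genes 15.0% rose and 15.6% fell. The rises were found among genes of several systems and lay between 0.13 and 0.47 on the log2 scale. They were led by the transporter ABCC3, the thioredoxin reductase TXNRD1 and the nuclear protein PIR. Next came the mitochondrial superoxide dismutase SOD2, the glutathione synthesis subunit GCLM and the quinone reductase NQO1. The single fall was that of the glutathione reductase GSR. The median log2 change was 0.07 over the 41 genes and 0.00 over all tested genes. Without knockdown replicate 1, 18 genes rose and 5 fell (BACH1, CAT, GSR, NFE2L2 and SLC7A11), where 21.2% and 21.5% of all tested genes did so. Without control replicate 4 the median over the 41 genes was 0.039. In bulk RNA, less RNA of a gene per cell and fewer cells that carry it cannot be told apart.

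Each library held 31178036 to 35147860 counts, so that 3 counts equal 0.0851 to 0.0969 CPM. Knockdown replicate 1 stood apart from the other knockdown libraries: its counts differed from theirs by a chi-square of 16.1 to 18.6 per degree of freedom, against 2.97 to 4.40 within any other same-group pair. Squamous epithelial markers (KRT5, KRT14, KRT17, TP63, SFN, CDH1, LAMB3 and ITGB4) were all present, with summed levels of 3855 to 4383 CPM in knockdown libraries and 5940 to 6001 CPM in controls. All 8 of them fell, and their part in the redox results was not tested. Under 1 CPM in every library were 6 of 7 fibroblast markers, 5 of 6 leukocyte markers and 6 of 7 endothelial markers. The exceptions were COL1A1, CD68 and CDH5. The summed levels were 4.25 to 7.0 CPM in knockdown libraries and 9.88 to 14.7 CPM in controls for the fibroblast list. They were 73.9 to 79.5 CPM in knockdown libraries and 77.6 to 84.6 CPM in controls for the leukocyte list, and 1.96 to 2.79 CPM in knockdown libraries and 1.09 to 2.01 CPM in controls for the endothelial list.

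**Figure D1:**
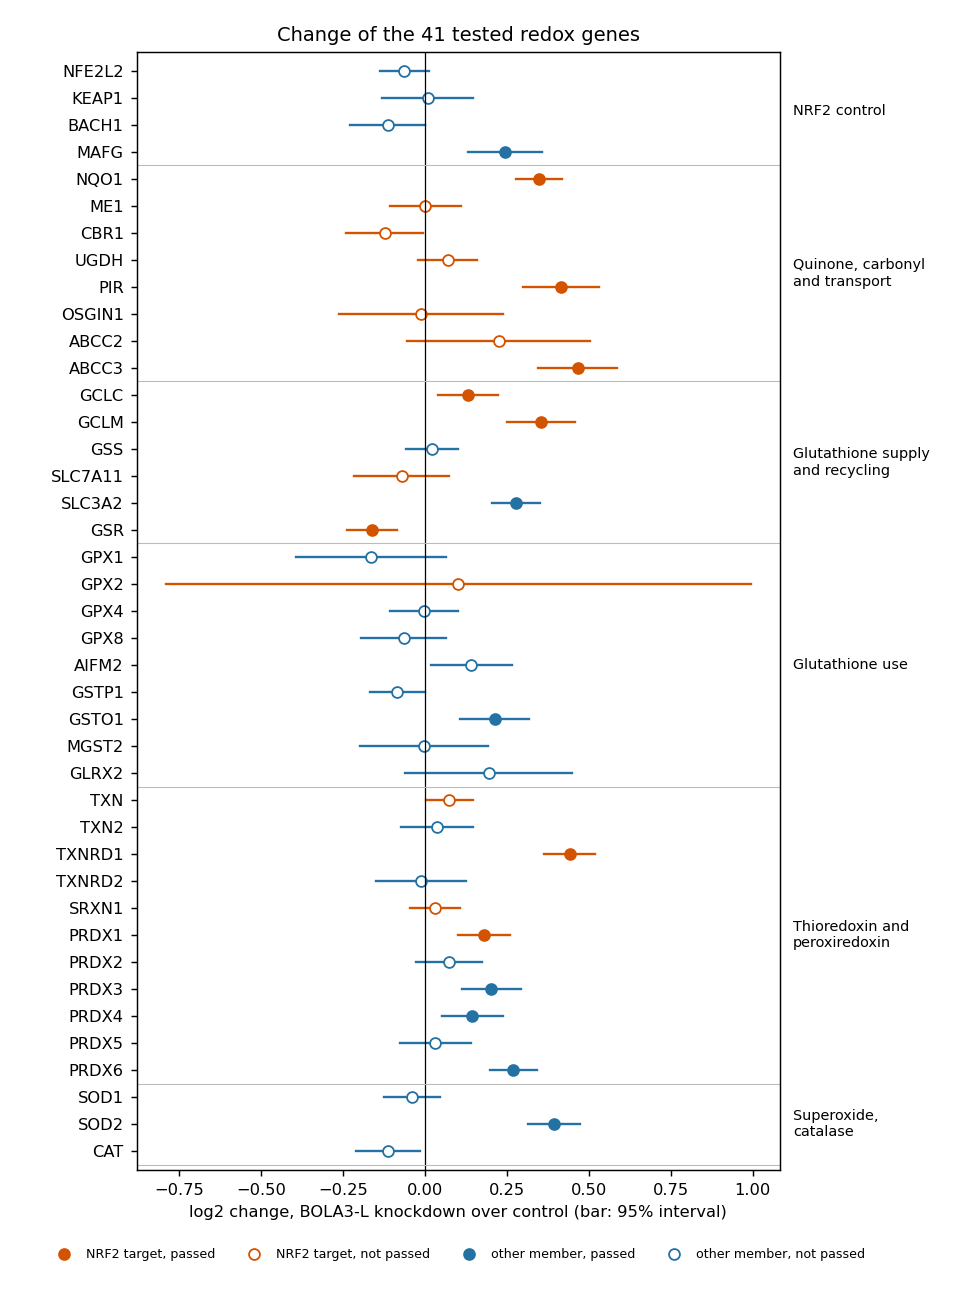
Log2 change of the 41 tested genes in BOLA3-L knockdown over control cells, with 95% intervals as bars; filled symbols passed the test, orange marks NRF2 targets and blue the other genes. The 14 filled symbols to the right of 0 are rises, and GSR is the filled symbol to the left.

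Because NRF2 acts through antioxidant response elements, the letters TGACNNNGC, the core of such an element, were looked up on both strands in windows from 250 bases before to 50 bases after the transcript starts listed by RefSeq (GRCh38.p14), with windows for 38 of the 48 symbols. At least 1 match was present for 12 of the 38 genes (31.6%), against 4384 of 27305 genes (16.1%) with a window in the same table. The 38 genes have more windows each; per window the shares were 13 of 58 (22.4%) and 4687 of 35116 (13.3%). Among genes that rose, 5 of 11 with a window had a match, and among tested genes that did not pass 6 of 21 had one. The matches of SLC3A2, PIR, GSTP1, AIFM2 and 1 of those of ME1 overlap the AP-1 letters TGACTCA, which 4.95% of all 35116 windows hold. A match describes the letters of a window and does not show binding. The 250 bases before a listed transcript start are given here 5′ to 3′ for the genes that rose and have a match upstream. The match is in capitals, and TXNRD1 has a pair of listed starts with a match. The starts shown for SLC3A2 and GSTO1 and the later TXNRD1 start lie within the span of the gene and not at its beginning.
GCLM (chr1:93909431-93909680, minus strand): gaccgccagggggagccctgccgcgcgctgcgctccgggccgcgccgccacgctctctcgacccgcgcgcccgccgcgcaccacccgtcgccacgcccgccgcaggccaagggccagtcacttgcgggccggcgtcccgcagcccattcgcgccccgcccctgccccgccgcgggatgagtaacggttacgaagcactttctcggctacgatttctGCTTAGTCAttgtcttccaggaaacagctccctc
TXNRD1 (chr12:104215529-104215778, plus strand): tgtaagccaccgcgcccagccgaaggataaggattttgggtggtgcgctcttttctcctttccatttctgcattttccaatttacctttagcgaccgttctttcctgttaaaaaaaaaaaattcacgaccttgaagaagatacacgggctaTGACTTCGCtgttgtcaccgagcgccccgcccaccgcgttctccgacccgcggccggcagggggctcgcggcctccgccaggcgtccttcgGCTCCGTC
TXNRD1 (chr12:104286782-104287031, plus strand): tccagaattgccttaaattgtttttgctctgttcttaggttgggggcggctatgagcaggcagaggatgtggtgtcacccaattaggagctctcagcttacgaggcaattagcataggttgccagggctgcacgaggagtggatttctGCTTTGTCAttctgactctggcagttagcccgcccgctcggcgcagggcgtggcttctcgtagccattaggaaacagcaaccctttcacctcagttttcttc
SLC3A2 (chr11:62881449-62881698, plus strand): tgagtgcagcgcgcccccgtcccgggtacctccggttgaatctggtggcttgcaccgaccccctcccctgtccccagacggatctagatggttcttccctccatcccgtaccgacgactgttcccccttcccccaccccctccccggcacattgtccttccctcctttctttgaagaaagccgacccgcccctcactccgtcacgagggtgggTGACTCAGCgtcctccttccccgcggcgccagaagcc
GSTO1 (chr10:104254642-104254891, plus strand): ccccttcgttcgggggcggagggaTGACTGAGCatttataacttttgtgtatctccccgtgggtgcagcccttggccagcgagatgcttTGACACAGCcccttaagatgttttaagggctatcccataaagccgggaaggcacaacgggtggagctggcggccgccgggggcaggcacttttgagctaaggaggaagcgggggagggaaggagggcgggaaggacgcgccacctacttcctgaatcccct

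The match of GCLM spans positions -34 to -26 from the listed start and that of SLC3A2 positions -37 to -29. In GSTO1 there are matches at -226 to -218 and -161 to -153. The first TXNRD1 start has a match at -99 to -91 and another from -8 to 1, whose last base lies past the end shown, and the second has its match at -102 to -94. The same core also stood beside genes that did not pass the test. The next lines show 1 match in capitals with 10 bases on each side for PIR, which rose and has its match after the start, at positions 27 to 35, and for GSTP1, AIFM2, ME1, GPX2, KEAP1 and CBR1, which did not pass. ME1 has another match at positions 12 to 20 and KEAP1 another at -54 to -46, not printed.
PIR (chrX:15493289-15493317, minus strand): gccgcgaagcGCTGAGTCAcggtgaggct
GSTP1 (chr11:67583736-67583764, plus strand): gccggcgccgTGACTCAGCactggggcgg
AIFM2 (chr10:70132829-70132857, minus strand): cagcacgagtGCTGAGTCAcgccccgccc
ME1 (chr6:83431170-83431198, minus strand): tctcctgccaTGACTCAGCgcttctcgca
GPX2 (chr14:64942849-64942877, minus strand): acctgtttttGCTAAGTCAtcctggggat
KEAP1 (chr19:10502784-10502812, minus strand): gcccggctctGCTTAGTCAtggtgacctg
CBR1 (chr21:36069855-36069883, plus strand): tgcgggttctGCAAAGTCAggctagctgg

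Among the genes that control the pathway, MAFG rose and the others did not pass the test. MAFG, a small MAF partner of NRF2 (identifier 4097, chromosome 17, 81918270 to 81931244), was at 46.9, 51.2, 50.7 and 47.5 CPM in knockdown replicates 1 to 4, against 39.7, 41.2, 40.2 and 44.7 CPM in control replicates 1 to 4. Every knockdown library lay above every control (log2 change 0.24, SE 0.0536, adjusted p 0.00200). NFE2L2 (identifier 4780, chromosome 2, 177230303 to 177264727) was at 221, 209, 204 and 209.8 CPM in knockdown replicates 1 to 4, against 221, 221, 219 and 219 CPM in control replicates 1 to 4. These values overlap and the change did not pass (log2 change -0.06, 95% interval -0.14 to 0.01, adjusted p 0.198). BACH1, the repressor that competes for the same elements, was at 47.6, 40.8, 43.2 and 40.7 CPM in the knockdown libraries, against 47.5, 46.8, 46.6 and 45.4 CPM in the controls. Its knockdown replicate 1 lay at the level of the controls while the other knockdown libraries lay below them all (log2 change -0.11, 95% interval -0.23 to 0.00, adjusted p 0.128). KEAP1 (identifier 9817, chromosome 19, 10486125 to 10503356) was at 57.6, 75.9, 69.6 and 70.6 CPM in the knockdown libraries, against 63.0, 68.1, 69.7 and 71.4 CPM in the controls, with overlapping groups and the lowest value in knockdown replicate 1 (log2 change 0.01, 95% interval -0.13 to 0.15, adjusted p 0.942). Without that library BACH1 (log2 change -0.16, adjusted p 0.0034) and NFE2L2 (-0.08, adjusted p 0.011) passed the test as falls. NRF2 activity is set largely by protein stability, which these data do not measure.

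The group of quinone and carbonyl enzymes and conjugate exporters, in which ME1, UGDH, PIR and OSGIN1 were also placed, gave 3 rises in 8 tested members. The rises were those of NQO1, PIR and ABCC3 (37.5%, against 15.0% of all tested genes). NQO1, which reduces quinones by the transfer of an electron pair and is a standard reporter of NRF2 activity (identifier 1728, chromosome 16, 69709401 to 69726560), was at 582, 609, 564 and 599.6 CPM in knockdown replicates 1 to 4, against 467, 453, 466 and 464 CPM in control replicates 1 to 4. All knockdown libraries lay above all controls, and the level was 27.3% above control (log2 change 0.35, SE 0.0330, adjusted p 2.8e-07). Another annotated gene overlaps 18.4% of its exon sequence. PIR, pirin, an iron-binding nuclear protein (identifier 8544, chromosome X, 15384799 to 15493333), was at 30.8, 32.1, 30.3 and 31.7 CPM in the knockdown libraries, against 24.0, 22.4, 23.1 and 24.1 CPM in the controls. Its groups were also apart (log2 change 0.41, SE 0.0551, adjusted p 1.7e-05). ABCC3, an export pump for glucuronide and glutathione conjugates (identifier 8714, chromosome 17, 50634881 to 50692253), had the largest change of the 41 genes and was at 47.6, 48.9, 50.7 and 57.1 CPM in the knockdown libraries, against 37.3, 37.5, 36.1 and 36.9 CPM in the controls. Knockdown replicate 4 was the highest, and every knockdown library exceeded the controls (log2 change 0.47, SE 0.0575, adjusted p 7.1e-06).

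The other members of this group did not pass. ME1, the malic enzyme that makes NADPH, averaged 39.1 ± 1.5 CPM in knockdown cells and 39.1 ± 1.3 CPM in control cells (SD, n = 4 each), with an interval of -0.11 to 0.11 on the log2 scale. CBR1, a carbonyl reductase, averaged 97.3 ± 9.26 CPM in knockdown cells and 106 ± 3.62 CPM in control cells (SD, n = 4 each) (log2 change -0.12, 95% interval -0.24 to -0.01, adjusted p 0.107). UGDH, which makes UDP-glucuronate, averaged 77.9 ± 2.66 CPM in knockdown cells and 74.2 ± 2.1 CPM in control cells (SD, n = 4 each) (log2 change 0.07, 95% interval -0.02 to 0.16, adjusted p 0.245). The low genes OSGIN1 (log2 change -0.01) and ABCC2 (0.22), an export pump related to ABCC3, lay between 4.01 and 5.94 CPM in all libraries. The aldo-keto reductases AKR1B10, AKR1C1, AKR1C2 and AKR1C3, sensitive NRF2 targets in human cells, were too low to test, with at most 6 counts in any knockdown library and at most 9 in any control library. Shared sequence covers 22.2% of AKR1C1 and 41.9% of AKR1C2, so their few counts could not be assigned to 1 gene with certainty.

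**Figure D2:**
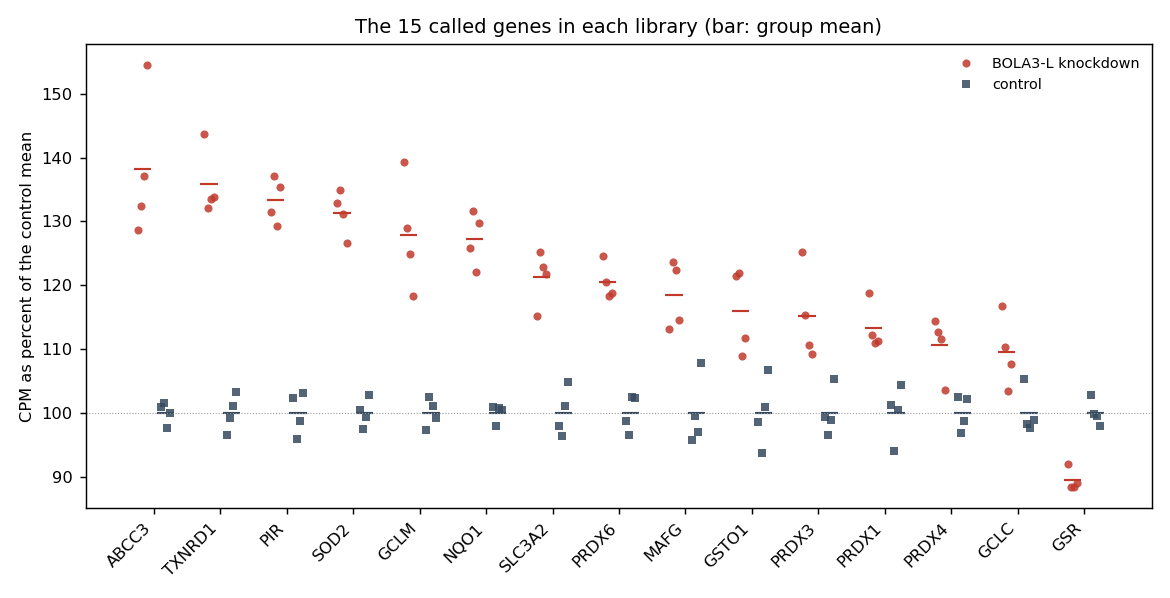
CPM of each library as a percent of the control mean for the 15 genes that passed the test, with knockdown libraries as red circles left of control libraries as dark squares and group means as bars. Groups are apart for 14 of the genes and overlap for GCLC. The genes were chosen by the test on these same libraries. Among all tested genes, every knockdown library lay above every control in 14.6% and below in 15.6%.

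Of 6 genes that supply and recycle glutathione, GCLM, GCLC and SLC3A2 rose and GSR fell, 3 of 6 and 1 of 6 where 15.0% and 15.6% of all tested genes did so. GCLM, the modifier subunit of glutamate-cysteine ligase, the rate-limiting enzyme of glutathione synthesis (identifier 2730, chromosome 1, 93885199 to 93909430), was at 97.7, 90.5, 87.5 and 82.9 CPM in knockdown replicates 1 to 4, against 68.2, 71.9, 70.9 and 69.5 CPM in control replicates 1 to 4. Knockdown replicate 1 was the highest and all knockdown libraries exceeded the controls (log2 change 0.35, SE 0.0492, adjusted p 2.8e-05). GCLC, the catalytic subunit of the same enzyme, was at 147, 139, 131 and 136 CPM in the knockdown libraries, against 133, 124, 123 and 125 CPM in the controls. The highest control lay above 1 knockdown library, and the rise was small (log2 change 0.13, SE 0.0433, adjusted p 0.0278). It lost its call without knockdown replicate 2 or control replicate 2, 3 or 4, with adjusted p up to 0.0925.

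Cystine for glutathione enters through the exchanger formed by SLC7A11 and SLC3A2. SLC3A2, the heavy chain, which also serves other amino acid transporters (identifier 6520, chromosome 11, 62856109 to 62888860), was at 1106, 1202, 1180.1 and 1170.2 CPM in knockdown replicates 1 to 4, against 940.3, 926, 971 and 1007 CPM in control replicates 1 to 4. The groups were apart (log2 change 0.28, SE 0.0351, adjusted p 9.5e-06). SLC7A11, the cystine-specific light chain, was at 75.9, 62.8, 66.3 and 59.4 CPM in the knockdown libraries, against 62.0, 73.6, 68.3 and 73.5 CPM in the controls. Its groups overlapped and it did not pass (log2 change -0.07, 95% interval -0.22 to 0.07, adjusted p 0.471), while it fell without knockdown replicate 1 (-0.14, adjusted p 0.018). GSS, glutathione synthetase, averaged 147 ± 4.29 CPM in knockdown cells and 145 ± 3.14 CPM in control cells (SD, n = 4 each) (log2 change 0.02, 95% interval -0.06 to 0.10, adjusted p 0.703). GSR, which returns oxidized glutathione to its reduced form with NADPH, was at 134, 129, 129 and 129 CPM in the knockdown libraries, against 149, 145, 145 and 143 CPM in the controls. Every knockdown library lay below every control (log2 change -0.16, SE 0.0365, adjusted p 0.00256).

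Among the 9 tested enzymes that use glutathione or act beside it, GSTO1 rose (11.1%, near the 15.0% of all tested genes) and 0 fell in edgeR, with 1 fall before adjustment at p under 0.05 and 0 by DESeq2. GSTO1, an omega-class transferase with thioltransferase activity, was at 100.2, 101, 89.8 and 92.1 CPM in knockdown replicates 1 to 4, against 81.3, 77.3, 83.3 and 88.0 CPM in control replicates 1 to 4. All knockdown libraries were above all controls, by a small margin at the closest (log2 change 0.21, SE 0.0501, adjusted p 0.00327). GPX4, the selenoenzyme that reduces lipid peroxides in membranes, averaged 166 ± 13.9 CPM in knockdown cells and 167 ± 2.81 CPM in control cells (SD, n = 4 each), with an interval of -0.11 to 0.10. AIFM2, also called FSP1, which guards against lipid peroxidation without glutathione, averaged 59.2 ± 5.35 CPM in knockdown cells and 53.7 ± 2.03 CPM in control cells (SD, n = 4 each). It did not pass with all libraries (adjusted p 0.0785) and rose without knockdown replicate 1 (log2 change 0.20, adjusted p 9.1e-05).

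GPX1, the cytosolic glutathione peroxidase, was at 204, 283, 284 and 288 CPM in the knockdown libraries, against 305, 296, 296 and 290.3 CPM in the controls. All knockdown libraries lay below all controls, but knockdown replicate 1 lay far below the rest and the change did not pass (log2 change -0.16, 95% interval -0.39 to 0.06, adjusted p 0.257). Sequence shared with a pseudogene covers 13.6% of GPX1. GSTP1, the most abundant gene of the 47 per length, was at 482, 555, 545 and 546 CPM in the knockdown libraries, against 559, 568, 566 and 562 CPM in the controls and had the same arrangement (log2 change -0.08, 95% interval -0.17 to -0.000584, adjusted p 0.120). GPX8, an endoplasmic reticulum member of the peroxidase family, and MGST2 did not pass (log2 changes -0.07 and -0.00305). GLRX2, the mitochondrial glutaredoxin, was at 6.5, 7.15, 6.27 and 6.67 CPM in the knockdown libraries, against 4.75, 5.27, 6.25 and 6.93 CPM in the controls, and did not pass (log2 change 0.20, 95% interval -0.06 to 0.45, adjusted p 0.241). GPX2 held 12 to 21 counts in knockdown libraries and 5 to 24 in controls, and its interval of -0.79 to 0.99 is too wide to show a change of the size seen elsewhere. MGST1 (at most 2 counts in a knockdown library and 1 in a control) and GLRX (4 to 6 counts in knockdown libraries and 6 to 9 in controls) were too low to test.

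Thioredoxins, their reductases, SRXN1 and the peroxiredoxins together gave 5 rises in 11 tested members (45.5%, against 15.0% of all tested genes). In edgeR 0 fell, with 0 falls before adjustment at p under 0.05 and 0 by DESeq2. Of the rises, 4 were those of peroxiredoxins, described below, and the remaining rise was that of TXNRD1. TXN, TXN2, TXNRD2 and SRXN1 did not pass. TXNRD1, the cytosolic selenoenzyme that reduces thioredoxin with NADPH and whose upstream sequences are shown above (identifier 7296, chromosome 12, 104215779 to 104350307), was at 348, 320.0, 323 and 324 CPM in knockdown replicates 1 to 4, against 234, 239.9, 245 and 249.9 CPM in control replicates 1 to 4. The lowest knockdown library exceeded the highest control by a wide margin, and the level was 35.8% above control (log2 change 0.44, SE 0.0370, adjusted p 6.4e-08). Its substrate TXN, thioredoxin, was at 463, 452, 430.1 and 446 CPM in the knockdown libraries, against 440.3, 417, 415 and 429 CPM in the controls. The groups overlapped and the change did not pass (log2 change 0.07, 95% interval 0.00 to 0.15, adjusted p 0.109), although limma called it among genes of at least 0.5 FPKM (adjusted p 0.0436 at its lowest). SRXN1, sulfiredoxin, which restores overoxidized peroxiredoxins and is an NRF2 target, averaged 142 ± 2.24 CPM in knockdown cells and 139 ± 3.54 CPM in control cells (SD, n = 4 each) (log2 change 0.03, 95% interval -0.05 to 0.11, adjusted p 0.564). Another gene overlaps 84.95% of the exon sequence of SRXN1, so its counts may be shared. The mitochondrial thioredoxin TXN2 was at 116, 138, 133 and 142 CPM in the knockdown libraries, against 131, 129, 132 and 123 CPM in the controls. The mitochondrial reductase TXNRD2 was at 29.8, 33.7, 32.6 and 37.8 CPM in the knockdown libraries, against 32.2, 35.2, 33.7 and 34.1 CPM in the controls. Both had overlapping groups and did not pass (log2 changes 0.04 and -0.01).

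Peroxiredoxins, which reduce peroxide with electrons mostly from thioredoxin, all had log2 changes above 0, and 4 of the 6 rose (66.7%, against 15.0% of all tested genes). PRDX6, a cytosolic member that uses glutathione (identifier 9588, chromosome 1, 173477335 to 173488815), was at 375, 363, 357 and 358 CPM in knockdown replicates 1 to 4, against 297, 291, 309 and 308 CPM in control replicates 1 to 4, with groups apart (log2 change 0.27, SE 0.0343, adjusted p 1.1e-05). PRDX3, the mitochondrial peroxiredoxin, was at 342, 315, 302 and 298 CPM in the knockdown libraries, against 271, 263, 269.8 and 287 CPM in the controls. Knockdown replicate 1 was the highest, and the groups were apart (log2 change 0.20, SE 0.0432, adjusted p 0.00155). PRDX1, the abundant cytosolic form and an NRF2 target, was at 456, 431, 426 and 427 CPM in the knockdown libraries, against 389, 361, 385 and 401 CPM in the controls, again apart (log2 change 0.18, SE 0.0374, adjusted p 0.00130). Exons of MMACHC overlap 30.3% of PRDX1. PRDX4, the form of the endoplasmic reticulum, was at 91.6, 90.2, 89.3 and 82.9 CPM in the knockdown libraries, against 82.0, 77.5, 79.0 and 81.7 CPM in the controls. The margin between its groups was narrow (log2 change 0.14, SE 0.0439, adjusted p 0.0174), and it lost its call without knockdown replicate 2 or control replicate 2 or 3 (adjusted p up to 0.0597). PRDX2 and PRDX5 (log2 changes 0.07 and 0.03) passed only without knockdown replicate 1, where they rose by 0.13 and 0.10. Summed over the 6 genes, the deposited FPKM came to 1311, 1331, 1316 and 1314 in knockdown replicates 1 to 4 and to 1191, 1137, 1169 and 1195 in control replicates 1 to 4.

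SOD2, the manganese superoxide dismutase of mitochondria (identifier 6648, chromosome 6, 159669069 to 159762281), rose and was at 167, 169.9, 165 and 159 CPM in knockdown replicates 1 to 4, against 126, 123, 125 and 129 CPM in control replicates 1 to 4. All knockdown libraries exceeded all controls, and the level was 31.4% above control (log2 change 0.39, SE 0.0374, adjusted p 2.8e-07). SOD1, the copper-zinc enzyme of the cytosol, was at 139, 152, 141 and 154 CPM in the knockdown libraries, against 155, 148, 149.5 and 150.5 CPM in the controls, and did not pass (log2 change -0.04, 95% interval -0.12 to 0.05, adjusted p 0.499). Catalase, CAT, the peroxisomal enzyme that splits hydrogen peroxide, was at 59.1, 53.7, 55.7 and 58.2 CPM in the knockdown libraries, against 59.8, 61.1, 61.1 and 62.8 CPM in the controls. Its knockdown libraries all lay below the controls, yet the change did not pass with all libraries (adjusted p 0.0750). Without knockdown replicate 1 it did (log2 change -0.13, adjusted p 0.0088).

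On the deposited FPKM scale, which divides fragments by gene length and library size, the abundant members were GSTP1, TXN, SLC3A2 and PRDX1. GSTP1 averaged 723 ± 43.4 FPKM in knockdown cells and 755 ± 6.31 FPKM in control cells (SD, n = 4 each, as for all FPKM values here), and TXN averaged 612 ± 19.5 FPKM in knockdown cells and 573 ± 15.2 FPKM in control cells. SLC3A2 averaged 481 ± 15.5 FPKM in knockdown cells and 391 ± 14.5 FPKM in control cells and PRDX1 343 ± 12.3 FPKM in knockdown cells and 298 ± 12.8 FPKM in control cells. NQO1 averaged 235 ± 7.3 FPKM in knockdown cells and 182 ± 2.36 FPKM in control cells, and TXNRD1 84.1 ± 3.58 FPKM in knockdown cells and 61.0 ± 1.75 FPKM in control cells. SLC7A11 averaged 6.83 ± 0.762 FPKM in knockdown cells and 7.07 ± 0.568 FPKM in control cells, far below its partner SLC3A2. The NRF2 gene NFE2L2 itself averaged 66.7 ± 2.44 FPKM in knockdown cells and 68.7 ± 0.435 FPKM in control cells, above KEAP1 at 22.7 ± 2.49 FPKM in knockdown cells and 22.3 ± 1.2 FPKM in control cells. These levels rest on the authors' length for each gene.

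**Figure D3:**
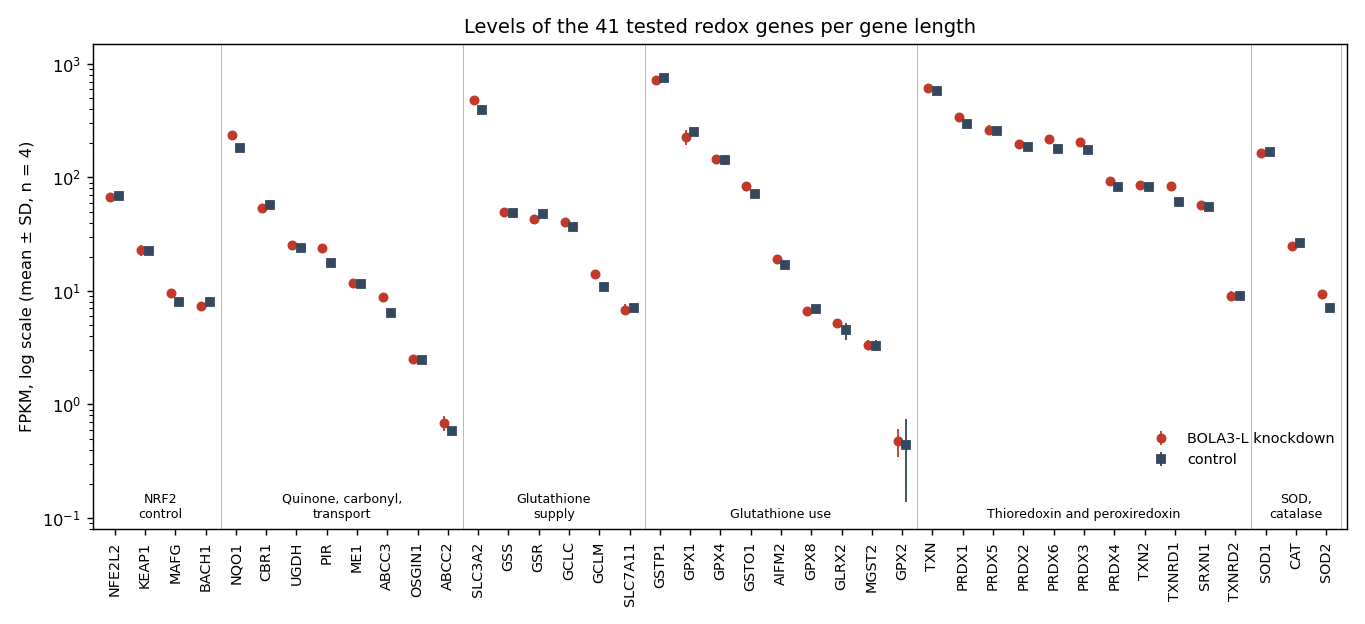
Mean deposited FPKM ± SD of the 41 tested genes on a log axis, with knockdown as red circles left of control as dark squares, ordered by role and level. Levels run from about 0.441 FPKM (GPX2 in controls) to 755 FPKM (GSTP1 in controls), and the differences between groups are small beside those between genes.

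In each library, genes were also compared within 6 pairs, of a cytosolic and a mitochondrial counterpart or of the subunits of 1 enzyme, by an exact permutation test, two-sided. The pairs were chosen with earlier results of these data known, so the p-values describe these libraries and are not independent evidence. With 70 ways to assign 8 libraries its smallest p is 0.0286, which adjusted over the 6 pairs became 0.0429. TXNRD1 over TXNRD2 was 3.30 ± 0.186 in knockdown libraries and 2.84 ± 0.0488 in control libraries (log2 ratio of CPM, SD, n = 4 each), a difference of 0.46 (adjusted exact p 0.0429). SOD1 over SOD2 was -0.17 ± 0.0926 in knockdown libraries and 0.26 ± 0.0310 in control libraries (log2 ratio of CPM, SD, n = 4 each), a difference of -0.43 (adjusted exact p 0.0429). The reductase ratio was higher and the dismutase ratio lower in every knockdown library than in every control. CPM is not scaled to gene length, so the sign of a ratio does not rank the genes of a pair. On deposited FPKM, SOD1 was on average 17.4 times SOD2 in knockdown libraries and 23.5 times SOD2 in control libraries. That ratio depends on the length the authors took for each gene. The longest coding transcript in GENCODE v29 holds 966 bases for SOD1 and 14266 bases for SOD2. GCLM over GCLC was -0.63 ± 0.0608 in knockdown libraries and -0.85 ± 0.0805 in control libraries (log2 ratio of CPM, SD, n = 4 each), a difference of 0.22 (adjusted exact p 0.0429), so the modifier subunit was higher relative to the catalytic subunit. TXN over TXN2 was 1.76 ± 0.158 in knockdown libraries and 1.72 ± 0.0674 in control libraries (log2 ratio of CPM, SD, n = 4 each), a difference of 0.04 (adjusted exact p 0.771). PRDX1 over PRDX3 was 0.47 ± 0.0461 in knockdown libraries and 0.49 ± 0.0307 in control libraries (log2 ratio of CPM, SD, n = 4 each), a difference of -0.02 (adjusted exact p 0.583). For these pairs the groups overlapped. GLRX over GLRX2 gave a difference of -0.65 (adjusted exact p 0.0429), which rests on 4 to 9 GLRX counts per library and was -0.28 on log2(FPKM + 1).

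**Figure D4:**
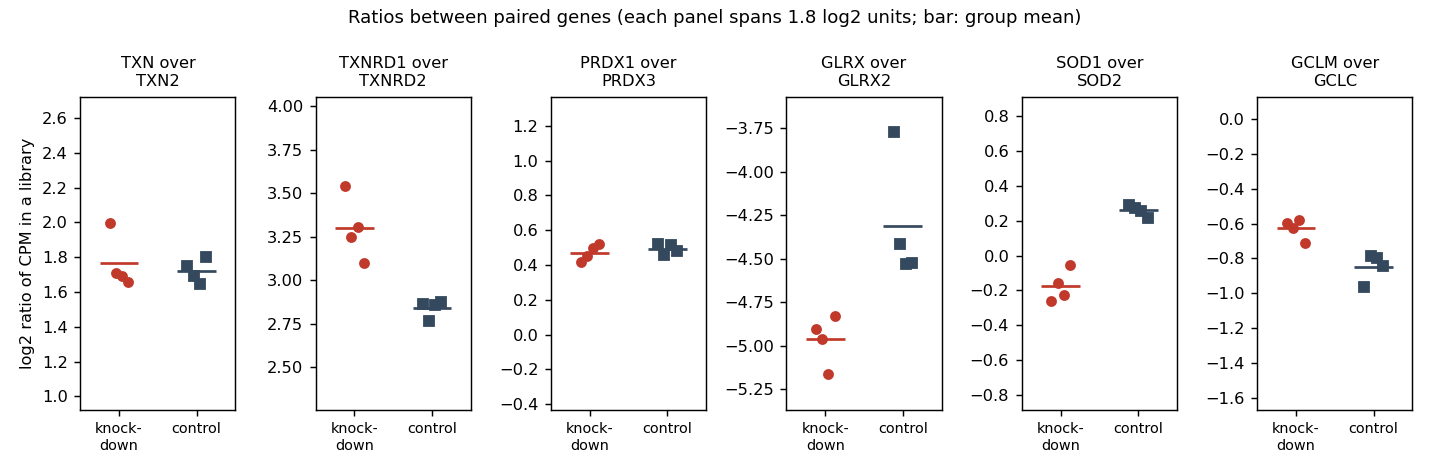
Log2 ratio of CPM between paired genes in each library, with the 4 knockdown libraries left of the 4 controls, group means as bars and the same span on every axis. The groups are apart for TXNRD1 over TXNRD2, GLRX over GLRX2, SOD1 over SOD2 and GCLM over GCLC, and overlap for TXN over TXN2 and PRDX1 over PRDX3.

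Of the 47 genes, 21 were classed as NRF2 targets from textbook knowledge and 17 of these were tested. The classes were set with earlier results of these data known. Of the 26 others, 24 were tested. The others were not checked for control by NRF2 and may hold further targets. Among targets 7 rose (41.2%) and GSR fell, with a median log2 change of 0.10. Among the others 7 rose (29.2%) and 0 fell in edgeR, with 2 falls before adjustment at p under 0.05 and 0 by DESeq2, and the median was 0.03. Both shares of rises stood above the 15.0% of all tested genes, and whether targets and others differ was not tested. In 13 of the 41 genes every knockdown library lay above every control, and in 4 every one lay below, where 14.6% and 15.6% of all tested genes did so. The targets that rose were NQO1, PIR, ABCC3, GCLC, GCLM, TXNRD1 and PRDX1. Targets with log2 changes near 0 were ME1, OSGIN1 and SRXN1.

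Without knockdown replicate 1, 18 of the 41 genes rose and 5 fell, against 21.2% and 21.5% of all tested genes. All 14 rises and the fall of GSR were among these calls, and TXN2, PRDX2, PRDX5 and AIFM2 were added to the rises and BACH1, CAT, NFE2L2 and SLC7A11 to the falls. The medians were then 0.10 for targets and 0.09 for the others. Of the targets 7 of 17 rose and 2 fell, and of the others 11 of 24 rose and 3 fell. The larger share of rises among targets, seen with all libraries, was thus not kept without knockdown replicate 1. Knockdown replicate 1 was the lowest of the 4 knockdown libraries for 18 of the 41 genes and the highest for 15. The other libraries were the lowest of their group for 4 to 13 genes and the highest for 1 to 14. The deviation of knockdown replicate 1 from the mean of the other 3 knockdown libraries was lower in genes of higher GC content (Pearson's r -0.77 and Spearman's rho -0.74 across 41 genes, which share 1 library and are not independent). The log2 change between the groups had an r of -0.17 with GC content with all libraries and 0.02 without that library. The median GC content was 46.2% for the genes that rose and 52.8% for those that did not pass, and its part in the calls was not tested.

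**Figure D5:**
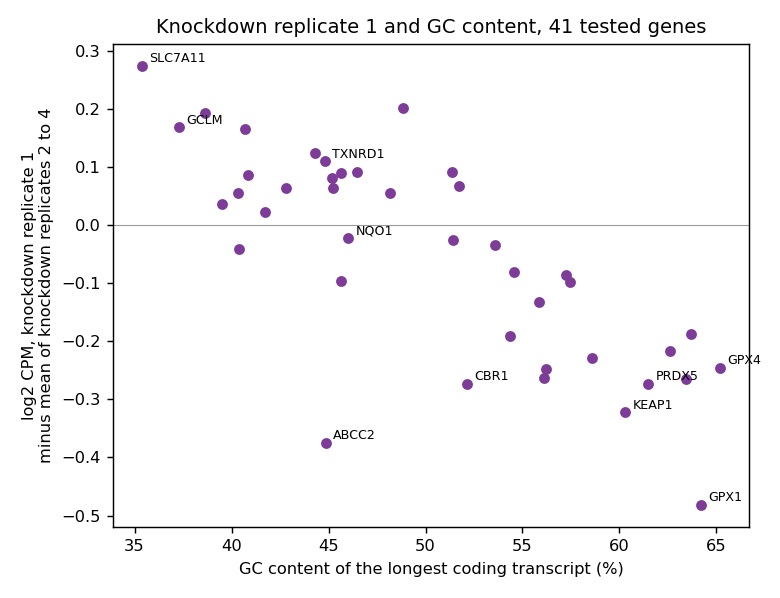
Log2 CPM of knockdown replicate 1 minus the mean of knockdown replicates 2 to 4, against the GC content of the longest coding transcript, for the 41 tested genes. GPX1 and KEAP1, which are GC-rich, lie below 0 and SLC7A11 and GCLM, which are GC-poor, above it.

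Of 28 further NRF2-linked genes listed beside the 48 symbols, 24 were tested, 9 rose (37.5%) and 1 fell (4.17%), where 15.0% and 15.6% of all tested genes did so. The rises included the ferritin chains FTH1 (log2 change 0.23) and FTL (0.12), the pentose phosphate enzymes TALDO1 (0.26) and TKT (0.25), the epoxide hydrolase EPHX1 (0.31), the small MAF gene MAFF (0.22), and the transferases GSTZ1 (0.22) and MGST3 (0.16). TRIM16 fell (log2 change -0.30, SE 0.0540, adjusted p 4.2e-04), and sequence shared with TRIM16L and another locus covers 51.9% of it. For FTH1 that share is 34.0%, with processed copies of the gene, and exons of BEST1 overlap 56.6% of its exon sequence. HMOX1, heme oxygenase, a target of both NRF2 and BACH1, was at 9.51, 10.4, 9.44 and 10.4 CPM in the knockdown libraries, against 9.92, 9.63, 8.89 and 8.87 CPM in the controls. It did not pass (log2 change 0.09, 95% interval -0.09 to 0.27, adjusted p 0.461).

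Of 24 further redox genes listed in the same way, 20 were tested, and MSRB3, ETHE1 and TXNRD3 rose while CHAC1 and OXSR1 fell. The share that rose, 15.0%, equals that of all tested genes, and 2 of 20 fell, where 15.6% of all tested genes did. MSRB3, a methionine sulfoxide reductase, averaged 26.2 ± 1.34 CPM in knockdown cells and 19.3 ± 0.896 CPM in control cells (SD, n = 4 each), and rose by 0.44 on the log2 scale (adjusted p 3.5e-05). ETHE1, a mitochondrial persulfide dioxygenase that uses glutathione persulfide, averaged 30.1 ± 2.28 CPM in knockdown cells and 22.6 ± 0.699 CPM in control cells (SD, n = 4 each), and rose by 0.41 (adjusted p 7.5e-05). CHAC1, which degrades glutathione and is induced by ATF4, was low, at 2.19, 2.41, 2.35 and 2.65 CPM in the knockdown libraries, against 4.56, 5.4, 3.1 and 3.46 CPM in the controls. All knockdown libraries lay below all controls (log2 change -0.78, SE 0.175, adjusted p 0.00230). On log2(FPKM + 1), which compresses low levels, limma gave -0.34 (adjusted p 0.0303 with no minimum and 0.00831 with a minimum of 0.5 FPKM). The thioredoxin inhibitor TXNIP had 0 counts in every knockdown library and at most 1 in any control.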

How the data were processed

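Per the labels, total RNA of KYSE150 cells was extracted with TRIzol, libraries were made with the VAHTS Universal V6 kit and sequenced in 150 bp read pairs; fastp filtering is named in the series' design text. The build is hg38, per the submitters' processing notes; names of the aligner, counter, strand setting and annotation were not given in the sources used here. Raw counts in the deposited table give 1 count per gene and library. The deposited FPKM values are counts scaled by the authors to gene length and library total and served for levels between genes.

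Counts were scaled by TMM (CPM on effective library sizes), filtered with filterByExpr and tested by the quasi-likelihood F-test of edgeR (robust), adjusted by Benjamini-Hochberg over all 11841 tested genes at 0.05. The SE is the absolute log2 change over the square root of F. Per-library ratios used log2 CPM with a prior count of 2. Classes and roles of the genes, the further gene lists and the pairs were chosen with earlier results of these data known. Values are given per library for genes with adjusted p under 0.05, the 4 regulators and the paired genes; of the further genes, up to 6 in each direction by smallest p were to be named, and FTL, EPHX1, MAFF, GSTZ1, MGST3, TXNRD3, HMOX1 and TXNIP, and the per-library values of GPX1, GSTP1, CAT and SLC7A11, were chosen after their values were seen; 1 further gene is not reported here. Alternatives were RLE and upper quartile scaling, no filter, 1 CPM in 4 libraries, a replicate block, DESeq2, limma on log2(FPKM + 1) and log2(FPKM + 0.1) with a minimum of 0.5 FPKM, limma on log2(FPKM + 1) without a minimum, and each library left out. The fit was tested on simulated data. Coordinates and promoter windows are RefSeq's on GRCh38.p14; GC content, shared 75-base windows and exon overlap are from GENCODE v29. Exons of other genes cover 84.95% of SRXN1, 30.3% of PRDX1, 30.0% of PRDX2, 18.9% of CBR1 and 18.4% of NQO1. Of the further genes they cover 56.6% of FTH1 and 35.7% of TRIM16. Part of the counts of all these genes may belong to the neighbour. Floors cover counting error only. Versions were DESeq2 1.42.0, limma 3.58.1, edgeR 4.0.16 and R 4.3.3, with matplotlib 3.10.9, pandas 2.3.3, scipy 1.17.1, numpy 2.4.6 and Python 3.11.15.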

Additional observations from a re-analysis of the deposited data

Results flagged for a closer look

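Within groups of 4 libraries, 10 of 102 groups examined had 1 library far from the others, by a gap that exceeds Dixon's 95% critical value for its share of the group's range; chance flags about 1 in 20 groups. Knockdown replicate 1 was that library in 8 of them. It was high for TXNRD1 (348 CPM, against 320 to 324 in the other knockdown libraries), PRDX1 (456 CPM, against 426 to 431) and GSR (134 CPM, against 129 in each of the others). It was low for GPX1 (204 CPM, against 283 to 288), GSTP1 (482 CPM, against 545 to 555), PRDX5 (195 CPM, against 234 to 238), TKT (1301 CPM, against 1459 to 1476) and TRIM16 (132 CPM, against 156 to 159.5). GPX2 was high in knockdown replicate 4 (0.617 CPM, against 0.369 to 0.380). GCLC was high in control replicate 1 (133 CPM, against 123 to 125).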

How the results depend on the processing

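The 14 rises and the fall of GSR were called under every alternative that kept all libraries (RLE and upper quartile scaling, no filter, 1 CPM in 4 libraries, DESeq2, the replicate block and limma on log2 FPKM), and limma with a minimum of 0.5 FPKM added TXN (15 rises). With single libraries left out, 12 to 18 of the genes rose and 1 to 5 fell; 6 to 7 NRF2 targets rose and 1 to 2 fell, and 6 to 11 of the others rose and 0 to 3 fell. The median log2 change ranged from 0.039 (without control replicate 4) to 0.10 (without knockdown replicate 1), and the number of changed genes from 2841 to 5081. GCLC and PRDX4 were the only rises that lost their call without some library. Over these fits, BOLA3 fell by 1.62 to 1.71 on the log2 scale. Leaving out 1 library limits the exact test of a pair ratio to p = 0.0571, so no pair could pass; the differences were then 0.38 to 0.53 for TXNRD1 over TXNRD2, -0.73 to -0.47 for GLRX over GLRX2, -0.48 to -0.40 for SOD1 over SOD2 and 0.18 to 0.25 for GCLM over GCLC. Same-numbered libraries did not deviate together (correlations of -0.04 to 0.09), so the numbers were not taken to pair them. With the replicate block the 14 rises and the fall of GSR were called, as were 3392 genes in all. An exact sign-flip permutation test over the 4 same-numbered differences cannot go below p = 0.125, the value for the differences of 0.46 (TXNRD1 over TXNRD2), -0.65 (GLRX over GLRX2), -0.43 (SOD1 over SOD2) and 0.22 (GCLM over GCLC).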
